A study of Neurospora crassa with 24 samples.

Results

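In *Neurospora crassa*, a filamentous fungus with mating types *mat A* and *mat a*, the 7 genes of the pheromone and mating-type system were followed among the 10561 genes of a count table: the pheromone precursor genes *ccg-4* and *mfa-1*, the pheromone receptor genes *pre-1* and *pre-2*, and the regulator gene *mat A-1* with its neighbours *mat A-2* and *mat A-3* in the *mat A* locus. They were taken by their locus tags, all 7 were in the table, and all 7 passed edgeR's filter on low counts, as did 9412 genes in all. RNA came from sexual development tissue 1 day before fertilization, after 7 days at 22 °C on crossing medium, in constant light or in the dark. The wild type was compared with 3 other strains: the ∆*ve-1* mutant, without the velvet protein VE-1, a strain labelled ∆*wc-1*, which should lack the blue-light photoreceptor WC-1, and a strain labelled as the ∆*ve-1* ∆*wc-1* double mutant. This made 8 conditions with 3 libraries each. The methods speak of independent biological replicates for RNA work in general and also of tissue from biological replicates being combined before extraction. How the pools relate to the 3 libraries is not given in the sources used here, so a p-value measures the spread between these libraries, part of which may be technical. The methods name a *mat A* strain for the wild type and for ∆*ve-1*, and the mating type of the other strains is not given in the sources used here.

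Mating in this fungus begins when a receptive hypha of a protoperithecium, the immature female organ, grows toward a male cell of the other mating type along a gradient of pheromone. A *mat A* cell makes the peptide pheromone encoded by *ccg-4* and senses the *mat a* pheromone, a lipid-modified peptide encoded by *mfa-1*, with the receptor PRE-1. A *mat a* cell makes the *mfa-1* pheromone and carries the receptor PRE-2. The pheromone genes are also transcribed in conidia, the asexual spores that act as male cells, and *ccg-4* was first known as a clock-controlled gene. The *mat A-1* gene sets mating identity, and *mat A-2* and *mat A-3* act after fertilization.

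The total count per library was 30246878 to 42697941. Levels are given as CPM, the count relative to the library total with TMM scaling, and a gene was called when edgeR's adjusted p was below 0.05 and the absolute log2 fold change (log2 change) was above 1. The targeted gene *ve-1* was at 1.60 to 8.39 CPM in the libraries of the ∆*ve-1* strains and at 176 to 291 CPM in the wild type. The *wc-1* gene was not low where it should be absent. In the dark it was at 54.8 to 69.2 CPM in the ∆*wc-1*-labelled libraries and at 36.1 to 129 CPM in those labelled double mutant. The wild type in the dark had 17.3 to 27.8 CPM. In light these ranges were 12.7 to 32.1 CPM for ∆*wc-1*, 15.5 to 113 CPM for the double mutant and 7.12 to 42.1 CPM for the wild type. The part of the gene that was removed is not given in the sources used here. The names ∆*wc-1* and ∆*ve-1* ∆*wc-1* below are therefore those of the labels. Replicate 1 of ∆*wc-1* in light stood apart from all others, with a Spearman correlation of 0.623 to 0.830 with the other 23 libraries against 0.734 to 0.992 among those, and results that rest on it are given with and without it. Replicate 1 in the dark and replicate 3 in light of the double mutant were the nearest pair of all (0.992). Of genes counted over 100 times and at most 1000 times, 59.8 to 93.3% had an even count, so counts are not independent molecules and floors cover counting error only.

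Each of the 8 groups held reads of all 3 *mat A* genes. In the NC12 build *mat A-3* (NCU01960), *mat A-2* (NCU01959) and *mat A-1* (NCU01958) lie side by side on chromosome I, from 1857194 to 1858469, from 1859093 to 1860424 and from 1860692 to 1862194. The pheromone gene *ccg-4* (NCU02500) lies on the same chromosome from 2531832 to 2533997. The gene *mfa-1* (NCU16992) is on chromosome V from 3396270 to 3397430, *pre-1* (NCU00138) on chromosome III from 2752660 to 2756067 and *pre-2* (NCU05758) on chromosome VII from 3727404 to 3729156. Per kilobase of gene span, the median level over the 24 libraries was highest for *ccg-4*, at 563 CPM per kb. It was followed by *mat A-1* (37.1) and *mfa-1* (31.6), and then by *mat A-3* (2.41), *pre-2* (2.34), *pre-1* (2.05) and *mat A-2* (0.655). The ranges over the libraries overlapped between neighbours in this order, except that the lowest *mfa-1* library (12.8 CPM per kb) was above the highest *mat A-3* library (8.05). In every library both precursor transcripts were above both receptor transcripts, and *mat A-1*, which never fell below 110 counts, was above *mat A-2* and *mat A-3*.

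**Figure D1:**
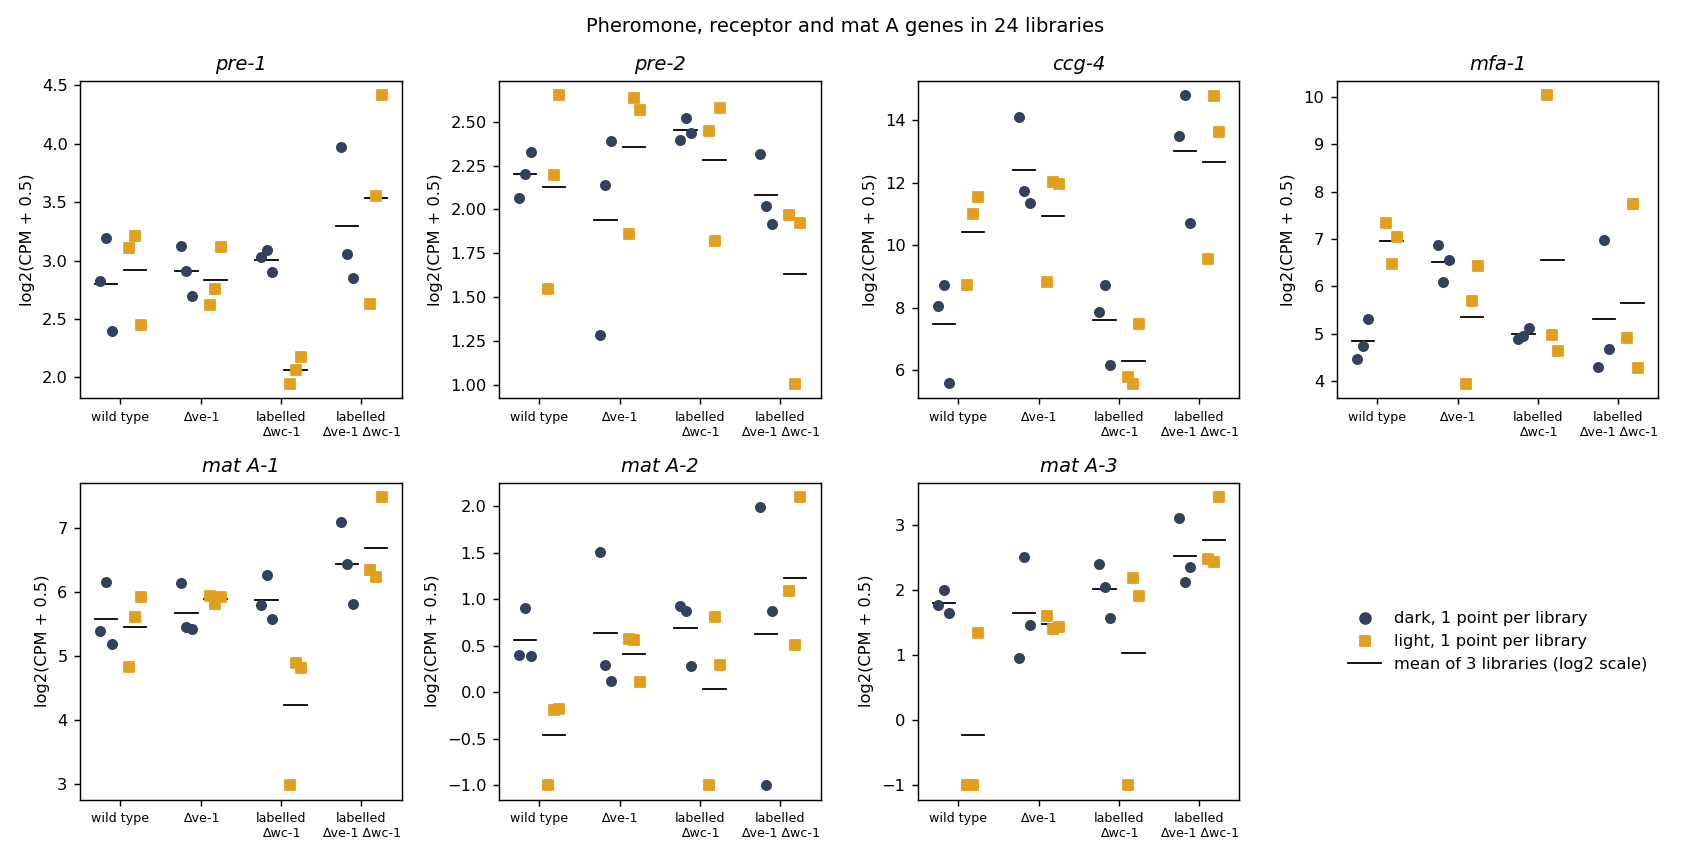
Level of each of the 7 genes in each of 24 libraries, as log2(CPM + 0.5) on the vertical axis, by strain, with dark as circles, light as squares and a bar for the mean of 3 libraries. The points of *ccg-4* span from 47.1 to 28407 CPM and those of *pre-2* only from 1.51 to 5.78 CPM, and the points at -1 are libraries with 0 counts.

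Among the 5 genes with counts in every library, the *mat A* pheromone precursor gene *ccg-4* had the widest range, 603-fold between the lowest and the highest library. Its share of a library ran from 0.00272 to 1.87% of all counts, and it was the most abundant of all genes in replicate 1 in the dark and replicate 3 in light of the double mutant. In the wild type in the dark its 3 libraries had 265, 428 and 48.3 CPM. In the libraries of ∆*ve-1* in the dark they had 17765, 3413 and 2608 CPM. Every ∆*ve-1* library was above every wild-type library, with no overlap between the groups. The mean was 7929 ± 8528 CPM (SD, n = 3) against 247 ± 191 CPM, which gave a log2 change of 5.00 (SE 1.39, adjusted p by edgeR = 0.0137), or 32.1-fold. It was 1 of 7 genes called in this comparison, in which 23.0% of all genes tested were called and 58.6% had groups that did not overlap. The call was lost without wild-type replicate 1 (edgeR adjusted p = 0.0526), without wild-type replicate 3 (0.0606), without ∆*ve-1* replicate 1 (log2 3.60, adjusted p = 0.0765) and with a covariate for the share of counts that fell to the 10 most abundant genes (log2 3.82, adjusted p = 0.0839). The direction was kept in each. The share in that covariate holds *ccg-4* itself in ∆*ve-1* replicate 1 in the dark, where the gene ranked 6. It also did not overlap between the groups, so the fit with this covariate cannot separate composition from strain.

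The double mutant in the dark had 11638, 28407 and 1682 CPM of *ccg-4*. The libraries of ∆*wc-1* in the dark had 233, 425 and 72.0 CPM, which is the range of the wild type. Against the wild type the double mutant was higher by 5.81 (log2, SE 1.44, adjusted p by edgeR = 0.0123), the only one of the 7 genes called where 11.3% of all genes were. Against ∆*wc-1* it was higher by 5.84 (SE 1.45, adjusted p by edgeR = 0.0118), again the only one of the 7, at a background of 12.5%. Both comparisons share the double mutant libraries. Each call was lost without replicate 1 or without replicate 3 of the lower group, with adjusted p = 0.0528 and 0.0688 against the wild type and 0.0606 and 0.0729 against ∆*wc-1*. In the dark none of the 7 was called for ∆*wc-1* against the wild type (0.0106% of all genes, 1 gene), and the log2 change of *ccg-4* was -0.02 with a 95% interval from -2.51 to 2.46. Nor was any of the 7 called between the double mutant and ∆*ve-1* in the dark (background 0.0212%), where that of *ccg-4* was 0.81 (from -1.69 to 3.31).

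In light the wild-type libraries had 419, 2034 and 2985 CPM of *ccg-4*. Replicate 1 lay inside the range of the dark libraries and the other 2 lay above it. The log2 change for light in the wild type was 2.87 (SE 1.26, 95% interval from 0.21 to 5.54), with an edgeR unadjusted p = 0.0332 and adjusted p = 0.130, so *ccg-4* was not called. None of the 7 genes was called for light in the wild type, where 11.4% of all genes were. DESeq2 called *ccg-4* here, with an adjusted p = 0.0350 on all 24 libraries and 0.000832 on the 6 compared.

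In the mutants light left *ccg-4* with no call. The ∆*ve-1* libraries in light had 455, 4177 and 3998 CPM, overlapping their dark group (log2 change -1.46, SE 1.20, adjusted p by edgeR = 1). None of the 7 genes was called there, against 0.106% of all genes. The ∆*wc-1* libraries in light had 55.2, 47.1 and 178 CPM (log2 change -1.38, SE 1.19, adjusted p by edgeR = 0.599). For light in ∆*wc-1* edgeR called 0% of all genes (1323 genes had an unadjusted p below 0.05), while DESeq2 called 244 genes on all libraries and 104 on those compared. The double mutant in light had 758, 27974 and 12636 CPM, within the range of its dark libraries or below it (log2 change -0.01, 95% interval from -2.50 to 2.47). For light in the double mutant edgeR called 0% of all genes (125 genes had an unadjusted p below 0.05), and DESeq2 called 2 genes on all libraries and 1 on those compared.

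The change with light was then compared between strains. For *ccg-4* the difference from the wild type was -4.34 in ∆*ve-1* (log2, SE 1.73, adjusted p by edgeR = 0.178) and -4.26 in ∆*wc-1* (SE 1.73, adjusted p = 0.226). In the double mutant it was -2.89 (SE 1.69, adjusted p = 0.366). None of these was called, and none of the 7 genes was in any of these 3 tests, whose backgrounds were 0.786%, 2.44% and 3.08% of all genes. DESeq2 called the difference for ∆*ve-1* (adjusted p = 0.0473 on all libraries, 0.0156 on those compared), and for ∆*wc-1* on the libraries compared (0.0107).

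Between strains in light, *ccg-4* was lower in ∆*wc-1* than in the wild type, with all 3 libraries below all 3 of the wild type. That lack of overlap was shared by 22.9% of all genes. The means were 93.3 ± 73.1 and 1813 ± 1297 CPM (SD, n = 3), a log2 change of -4.28 (SE 1.34, adjusted p by edgeR = 0.0435), or 19.4-fold lower. It was the only one of the 7 called, where 10.5% of all genes were. This call held without replicate 1 of the wild type and was lost without any of the other 5 libraries, one at a time, where the adjusted p was between 0.0556 and 0.133. Without the ∆*wc-1* library that stood apart, the log2 change was -4.01 (adjusted p = 0.0879), and the call was also lost in edgeR on only the libraries compared (adjusted p = 0.0755), with the covariate (-3.19, adjusted p = 0.116) and with the replicate number as a block (-4.11, adjusted p = 0.0589).

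In light *ccg-4* was also higher in the double mutant than in ∆*wc-1*, by 7.21 (log2, SE 1.54, adjusted p by edgeR = 0.00480), or 148-fold, at means of 13789 ± 13644 and 93.3 ± 73.1 CPM (SD, n = 3). The groups did not overlap, as was so for 25% of all genes. Without the library that stood apart *ccg-4* was higher by 6.94 (adjusted p = 0.0230), and it was called without each of the other libraries too. Here 3 of the 7 genes were called, all of them higher, against 12.5% of all genes. In edgeR on only the libraries of these 2 conditions none of the 7 was called (*ccg-4*, adjusted p = 0.135), and 14 genes were called in all against 1180.

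The remaining comparisons in light called none of the 7. Against the wild type, *ccg-4* in the double mutant was at a log2 change of 2.93 (SE 1.26, edgeR adjusted p = 0.160, background 6.53%), and DESeq2 on all libraries called it (adjusted p = 0.0424). Against ∆*ve-1* it was at 2.26 (SE 1.23, adjusted p = 0.682, background 0.701%). In ∆*ve-1* against the wild type it was at 0.67 (95% interval from -1.83 to 3.16, background 4.32%).

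**Figure D2:**
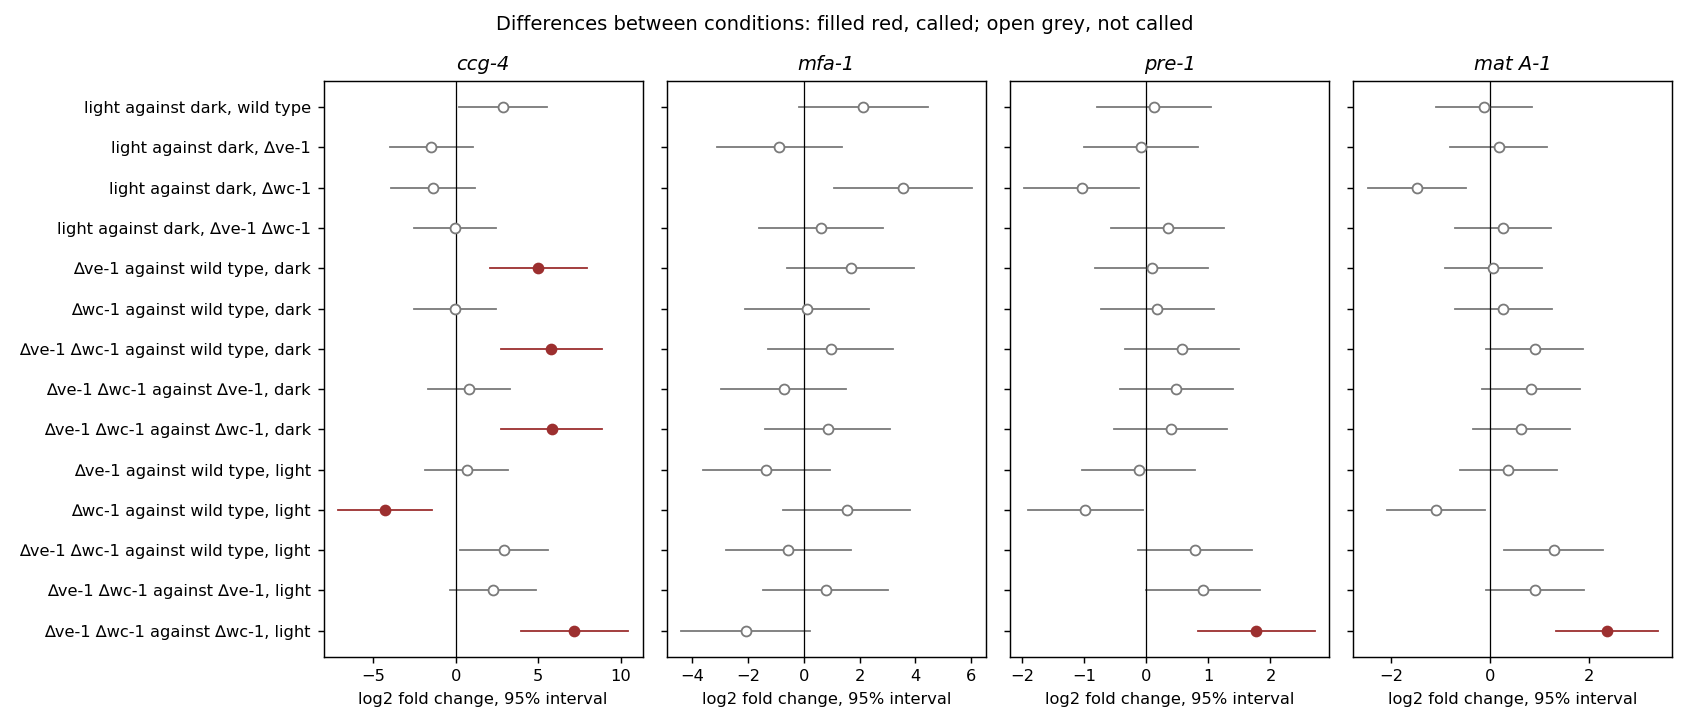
Log2 fold changes (points) with 95% intervals (lines) of *ccg-4*, *mfa-1*, *pre-1* and *mat A-1* in 14 comparisons between conditions, with called differences in filled red. For *ccg-4* 5 of the 14 are filled, 4 of them to the right of 0, and for *pre-1* and *mat A-1* only the double mutant against ∆*wc-1* in light is.

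Within the double mutant the libraries fell alike across light and dark. The values of *ccg-4* were near each other in replicate 1 in the dark and replicate 3 in light (11638 and 12636 CPM), in both replicates 2 (28407 and 27974 CPM), and lowest in replicate 3 in the dark and replicate 1 in light (1682 and 758 CPM). The same couples had the highest Spearman correlations over all genes between a dark and a light library of this strain, 0.992, 0.964 and 0.963. Without the nearest pair, *ccg-4* in the dark was still higher in the double mutant than in the wild type, by 5.92 (edgeR adjusted p = 0.0298), and than in ∆*wc-1*, by 5.95 (adjusted p = 0.0296).

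Conidia and the hyphae that bear them make large amounts of a few transcripts, and 5 of their markers stand beside *ccg-4*. They were *eas*, which encodes the hydrophobin of the spore coat, and *con-6*, *con-8*, *con-10* and *con-13*, which are induced in conidiation. Their summed level was 1007 to 3401 CPM in the wild type in the dark and 84636 to 138773 CPM in light. It was 17815 to 36089 CPM in ∆*ve-1* in the dark, 1378 to 4393 CPM in ∆*wc-1* in the dark, and 648 to 3775 CPM in ∆*wc-1* in light. The double mutant had 9231 to 19341 in the dark and 8564 to 18718 CPM in light. All 5 markers were called higher in ∆*ve-1* than in the wild type in the dark (23.0% of all genes were called there), and all 5 lower in ∆*wc-1* than in the wild type in light (10.5%), with and without the library that stood apart. In the dark 2 of 5 were called higher in the double mutant than in the wild type (*con-10* and *eas*, background 11.3%), and 3 of 5 than in ∆*wc-1* (*con-6*, *con-10* and *eas*, background 12.5%). In light 3 of 5 were called higher in the double mutant than in ∆*wc-1* (*con-6*, *con-8* and *con-10*, background 12.5%), of which *con-8* was not called without the library that stood apart (adjusted p by edgeR = 0.0888). Each *ccg-4* call between strains thus stood beside conidial markers called in the same direction. In the double mutant against the wild type in light, where *ccg-4* was not called, 2 of 5 were called lower (*con-13* and *eas*, background 6.53%), and for light in the wild type 4 of 5 were called higher (all but *con-8*, background 11.4%).

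The order of the libraries was only in part the same. Over the 24 libraries the Spearman correlation of *ccg-4* with the summed markers was 0.63, and 0.58 over 23 without the ∆*wc-1* library that stood apart. These points share strains and conditions, so this is a description. Wild-type replicate 1 in light had the highest marker sum (138773 CPM) and 419 CPM of *ccg-4*, whereas replicate 2 of the double mutant in light had 11653 CPM of the markers and 27974 CPM of *ccg-4*. The part of conidial tissue in the *ccg-4* differences was not tested, and in these bulk samples more conidial cells and more RNA per cell cannot be told apart.

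Few calls were made on markers of the female structures. The list held *poi-2* and *per-1*, which are expressed or needed in perithecia, *sub-1*, which encodes a regulator of female development, and *fsd-1*, which encodes a regulator of female fertility. Of these 4 genes, *poi-2* was called lower in ∆*ve-1* than in the wild type in the dark (log2 change -4.08, SE 1.48, adjusted p by edgeR = 0.0485) and *per-1* lower in ∆*wc-1* than in the wild type in light (-2.74, SE 0.68, adjusted p = 0.0125, and 0.0370 without the library that stood apart). In these comparisons 23.0% and 10.5% of all genes were called. No other call was made on the 4 markers in the 17 tests. None of the 4 had 0 counts in any library, and the summed level ran from 452 to 6850 CPM in the wild type in the dark and from 270 to 484 CPM in ∆*ve-1* in the dark. In the dark it ran from 2469 to 5603 CPM in ∆*wc-1* and from 345 to 6329 CPM in the double mutant, where replicate 2 was the highest. In light it ran from 3153 to 8480 CPM in the wild type, above all libraries of ∆*ve-1* (396 to 1065 CPM) and of the double mutant (391 to 813 CPM), and from 397 to 3906 CPM in ∆*wc-1*. Their part in the results for the 7 genes was not tested.

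**Figure D3:**
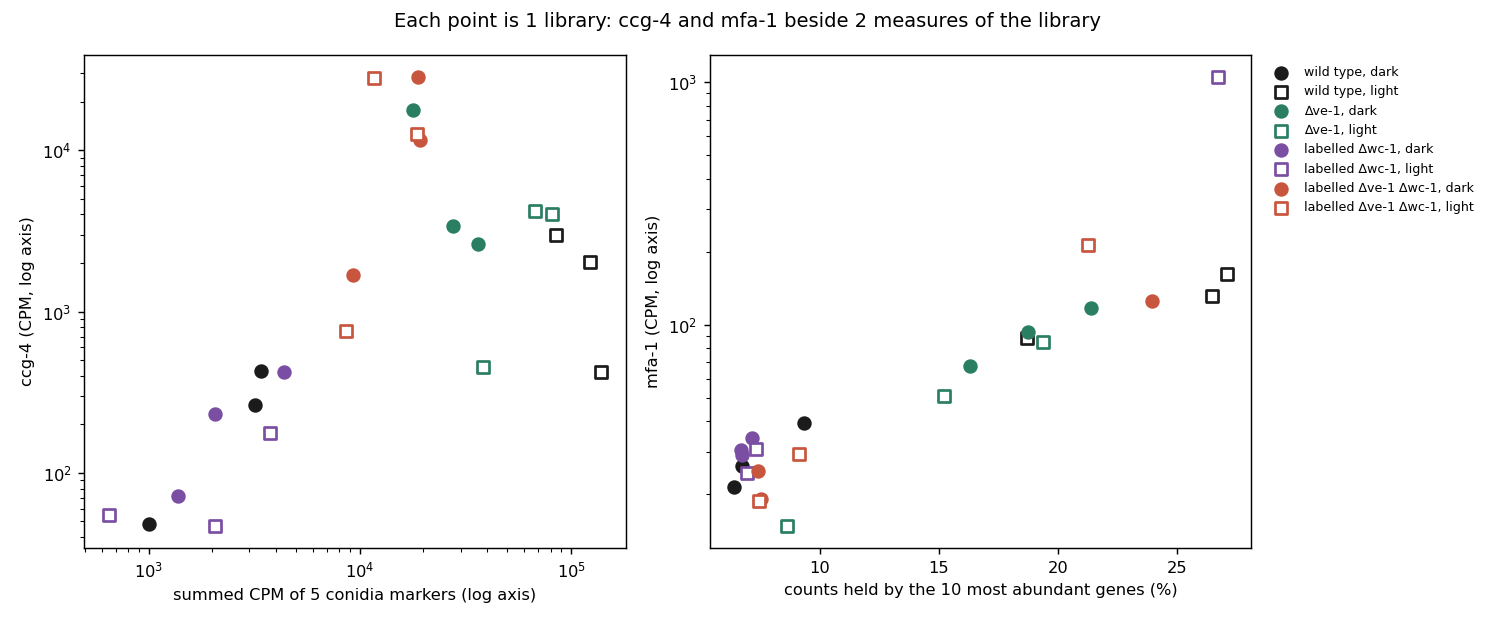
One point per library. Left, *ccg-4* (CPM, log axis) against the summed CPM of 5 conidia markers (log axis), where 4 of the 6 double mutant libraries lie at 11638 CPM or above, at middling marker sums, and wild-type replicate 1 in light lies low at 138773 CPM. Right, *mfa-1* (CPM, log axis) against the percentage of counts that the 10 most abundant genes took up, where every library above 10% is above 50 CPM and 1 ∆*wc-1* library in light is at 1048 CPM.

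The gene of the *mat a* pheromone, *mfa-1*, was counted in every library, from 14.9 to 1048 CPM. In the wild type it was at 21.4, 26.2 and 39.2 in the dark and at 162, 88.2 and 131 CPM in light. The groups did not overlap, as was so for 3 of the 7 genes and for 40.9% of all genes. The log2 change of 2.14 (SE 1.09, 95% interval from -0.18 to 4.45) had an edgeR adjusted p = 0.195 and was not called. In ∆*ve-1* in the dark the libraries had 117, 67.7 and 93.2 CPM, again above all wild-type libraries, with a log2 change of 1.68 (SE 1.08, adjusted p by edgeR = 0.257). In that comparison 58.6% of all genes had groups that did not overlap. Both differences were called in the same direction under 3 of 17 alternatives each. In edgeR on only the libraries compared, 1 of these, adjusted p was 0.00617 for light and 0.00321 for ∆*ve-1*.

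Both directions were reversed, and called, with the covariate for the share of counts that fell to the 10 most abundant genes (log2 change -1.61, edgeR adjusted p = 0.0127, and -1.31, adjusted p = 0.0171). That share was 6.41 to 9.31% in the wild type in the dark, 18.7 to 27.1% in light and 16.3 to 21.4% in ∆*ve-1* in the dark. Over the 24 libraries its Spearman correlation with *mfa-1* was 0.83, and that of the share of even counts was 0.91, as a description over libraries that share strains and conditions. In both comparisons the shares of the 10 most abundant genes did not overlap between the groups, so the covariate cannot separate composition from light or strain. The part of library composition in *mfa-1* was not tested beyond this covariate.

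The highest *mfa-1* value came from 1 library. In light the ∆*wc-1* libraries had 1048, 30.8 and 24.4 CPM, and in the dark 29.2, 30.5 and 34.1 CPM. The log2 change for light of 3.56 (SE 1.16, adjusted p by edgeR = 0.231) became -0.18 (adjusted p = 1) without the library that stood apart. In the same library *mat A-1* was at its lowest (7.37 CPM), both *mat A-2* and *mat A-3* had 0 counts, and *ve-1* was at 61.3 CPM. In the double mutant only replicates 2 were high, with 126 in the dark and 213 CPM in light, against 18.8 to 29.5 CPM in the other 4 libraries. The ∆*ve-1* libraries in light had 14.9, 51.0 and 85.2 CPM, all below the wild type in light (log2 change -1.34, SE 1.07, adjusted p by edgeR = 0.527). That lack of overlap was shared by 24.9% of all genes.

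The receptor genes were low in all libraries. The gene *pre-1*, whose receptor senses the *mat a* pheromone, was at 4.76 to 8.74 CPM in all 6 wild-type libraries and at 5.64 to 8.22 CPM in all 6 of ∆*ve-1*. The log2 change for light in the wild type was 0.13 (95% interval from -0.78 to 1.04) and that for dark-kept ∆*ve-1* against the wild type was 0.09 (from -0.82 to 1.00). In ∆*wc-1* it was at 7.67, 8.01 and 6.97 in the dark and at 3.35, 3.69 and 4.0 CPM in light. These groups did not overlap, as was so for 29.7% of all genes, and the log2 change of -1.03 (SE 0.44, adjusted p by edgeR = 0.297) was not called. Under 1 of 16 alternatives *pre-1* was called lower in light in ∆*wc-1*. All 3 libraries were low here, the one that stood apart included.

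In the double mutant *pre-1* had 15.2, 7.83 and 6.70 in the dark and 5.67, 11.3 and 20.8 CPM in light. Against ∆*wc-1* in light all 3 libraries were above, a lack of overlap that 25% of all genes shared. The gene was higher by 1.77 (log2, SE 0.44, adjusted p by edgeR = 0.0123), or 3.41-fold. Without the ∆*wc-1* library that stood apart it was higher by 1.71 (adjusted p = 0.0330). The call was lost without replicate 3 of the double mutant, the highest library (log2 1.20, adjusted p = 0.119), and in the tests on only the libraries compared (edgeR adjusted p = 0.285, DESeq2 adjusted p = 0.0582).

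The other receptor gene, *pre-2*, which belongs to *mat a* cells, was at 1.51 to 5.78 CPM in all libraries, from 36 to 281 counts. Its group means lay between 2.74 ± 1.07 CPM in the double mutant in light and 4.98 ± 0.24 CPM in ∆*wc-1* in the dark (SD, n = 3). It was called in none of the 17 tests. The 95% interval of its change with light ran from -0.98 to 0.98 in the wild type and from -0.55 to 1.41 in ∆*ve-1*, on the log2 scale. In the dark its ∆*wc-1* and wild-type groups did not overlap (4.77 to 5.24 against 3.69 to 4.53 CPM), as was so for 15.5% of all genes, at a log2 change of 0.28 (SE 0.46, adjusted p by edgeR = 1).

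Among the genes of the *mat A* locus, *mat A-1* was the one with a call. In the wild type it was at 41.4, 70.7 and 36.0 in the dark and at 28.0, 48.6 and 60.3 CPM in light, with overlapping groups (log2 change -0.11, 95% interval from -1.09 to 0.86). In ∆*ve-1* it was at 70.3, 43.3 and 42.6 in the dark and at 61.0, 55.8 and 60.5 CPM in light, which is the wild-type range. In ∆*wc-1* it was at 55.2, 76.8 and 47.1 in the dark and at 7.37, 29.3 and 27.7 CPM in light. The groups of ∆*wc-1* did not overlap, as was so for 29.7% of all genes, and the log2 change of -1.47 (SE 0.47, edgeR unadjusted p = 0.00523, adjusted p = 0.231) was not called. Under 1 of 16 alternatives *mat A-1* was called lower in light here. Without the library that stood apart the log2 change was -1.07 (adjusted p = 1).

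In the double mutant *mat A-1* was at 136, 86.2 and 55.7 in the dark and at 80.9, 75.1 and 179 CPM in light. Against ∆*wc-1* in light it was higher by 2.38 (log2, SE 0.49, adjusted p by edgeR = 0.00374), or 5.19-fold, and higher by 1.97 without the library that stood apart (adjusted p = 0.0126). The call was lost only in edgeR on the 6 libraries compared (adjusted p = 0.180). Against the wild type in light all 3 double mutant libraries were above all 3 of the wild type, a lack of overlap that 22.3% of all genes shared, with a log2 change of 1.29 (SE 0.47, adjusted p by edgeR = 0.0984) that was not called. When the library that stood apart was left out, which enters this test only through the shared spread, the difference was called (log2 1.29, adjusted p = 0.0331).

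The genes *mat A-2* and *mat A-3* each had 0 counts in 3 of the 24 libraries, and at most 181 and 493 counts in the others. In the wild type in the dark *mat A-2* was at 0.823, 1.37 and 0.808 CPM and *mat A-3* at 2.91, 3.50 and 2.64 CPM. In light *mat A-2* had 0, 10 and 12 counts and *mat A-3* had 0, 0 and 64 counts. A count of 0, with a floor of 3 counts, allows up to 0.121 CPM in replicate 1 and 0.114 CPM in replicate 2. Every light library was below every dark library for both, a lack of overlap that 40.9% of all genes shared. The log2 changes were -1.96 (SE 1.28, adjusted p by edgeR = 0.311) and -2.13 (SE 1.23, adjusted p = 0.251), and neither was called. With the composition covariate that of *mat A-2* was 1.22. Over the 24 libraries the Spearman correlation with the share of even counts was -0.654 for *mat A-2* and -0.565 for *mat A-3*, as a description. The part of library composition in these levels was not tested. The other libraries with 0 counts were replicate 1 of ∆*wc-1* in light for both genes, which allows up to 0.201 CPM, and replicate 2 of the double mutant in the dark for *mat A-2*, which allows up to 0.153 CPM.

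In the double mutant in light *mat A-2* was at 1.62, 0.921 and 3.77 CPM and *mat A-3* at 5.05, 4.90 and 10.3 CPM, all above the wild type in light, again against 22.3% of all genes without overlap. The log2 changes were 3.03 (SE 1.32, adjusted p by edgeR = 0.165) and 3.29 (SE 1.28, adjusted p = 0.119). Without the ∆*wc-1* library that stood apart *mat A-3* was called (log2 3.28, adjusted p = 0.0396). These 2 genes and *mat A-1* were highest in the same library of all 24, replicate 3 of the double mutant in light, which also had the highest *pre-1*.

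The level of *mat A-1* was also read against the 3 nearest tested genes on each side of the locus. They were *eat-6*, *eat-5* and NCU01961 on the side of *mat A-3* and NCU14009, NCU01957 and *eat-2* on the side of *mat A-1*. Their median was 40.4 to 108 CPM over the libraries. The ratio of *mat A-1* to it was 0.764 ± 0.173 in the wild type in the dark and 0.680 ± 0.125 in light (SD, n = 3). It was 0.947 ± 0.050 in ∆*wc-1* in the dark and 0.353 ± 0.149 in light, with each light library (0.183, 0.458 and 0.418) below each dark library (0.915, 1.00 and 0.921). The highest ratios were again those of the double mutant, 1.03 ± 0.37 in the dark and 1.14 ± 0.46 in light. Of the 6 neighbours 3 were called themselves in some comparisons, in which 6.53 to 23.0% of all genes were called. NCU14009 was lower in ∆*wc-1* than in the wild type in light (log2 change -2.25, adjusted p by edgeR = 0.0164) and higher in the double mutant than in ∆*wc-1* in light (3.17, adjusted p = 0.00248). NCU01961 was higher in the double mutant than in ∆*wc-1*, in light (2.79, adjusted p = 0.0398) and in the dark (2.69, adjusted p = 0.0455), and in ∆*ve-1* than in the wild type in the dark (2.86, adjusted p = 0.0232). NCU01957 was lower in light in the wild type (-2.03, adjusted p = 0.0431) and higher in the double mutant than in the wild type in light (2.15, adjusted p = 0.0484). Each of these was called without the library that stood apart too.

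**Figure D4:**
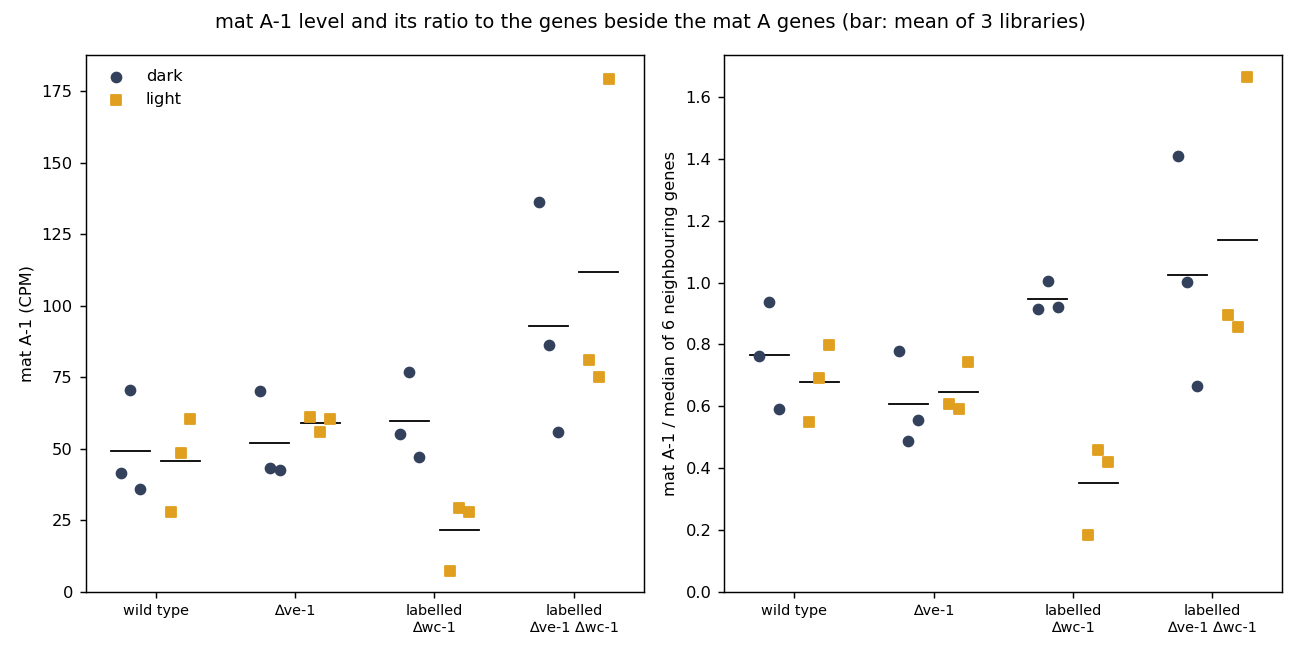
Left, *mat A-1* in CPM, and right, the ratio of *mat A-1* to the median CPM of the 6 neighbouring genes, by strain, for dark (circles) and light (squares), 1 point per library with a bar for the mean of 3. In ∆*wc-1* the 3 light libraries lie below the 3 dark libraries on both scales, and in the wild type the groups overlap.

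A receptor bound by pheromone signals through a G protein and a mitogen-activated protein (MAP) kinase cascade to transcription factors, and 17 genes of this route were counted in the same tests. None of the 17 was called for light in any strain. In those tests 11.4% of all genes were called in the wild type, 0.106% in ∆*ve-1* and 0% in ∆*wc-1* and the double mutant. Without the library that stood apart *mak-2*, a MAP kinase gene, was called lower in light in the wild type (log2 change -1.20, adjusted p by edgeR = 0.0400). In that fit 1760 of 9506 genes were called for light in the wild type. In the dark 6 of 17 were called in ∆*ve-1* relative to the wild type, 1 higher and 5 lower, against 23.0% of all genes, and the median log2 change was -0.73 over the 17 and -0.05 over all genes. For the 6 genes of the kinase cascade it was -1.25. The higher one was *cpc-2*, a G protein beta subunit of the RACK1 kind (log2 1.40, SE 0.38, adjusted p by edgeR = 0.0122). The lower ones were the kinase genes *stk-4*, *mek-2* and *mak-2*, and the transcription factor genes *pp-1* and *adv-1*.

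The MAP kinase gene *mak-2* was at 534 to 564 CPM in the wild type in the dark and at 101 to 162 CPM in ∆*ve-1* in the dark (log2 change -2.01, SE 0.44, adjusted p by edgeR = 0.00347). Its kinase kinase gene *mek-2* was at -1.19 (SE 0.39, adjusted p = 0.0320) and *pp-1*, the counterpart of yeast STE12, at -1.30 (SE 0.35, adjusted p = 0.0125). In the dark *mak-2* was lower in the double mutant than in ∆*wc-1* too (-1.50, SE 0.43, adjusted p = 0.0269, background 12.5%). None of the 6 genes of the kinase cascade was called in the double mutant against the wild type in the dark, at a background of 11.3%. There *mak-2* had a log2 change of -1.23 (adjusted p by edgeR = 0.0670), and was called at 0.0385 without the library that stood apart. Nor was any of the 6 called in the double mutant against ∆*wc-1* in light, at a background of 12.5%. In both comparisons *ccg-4* was called higher.

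The zinc-cluster transcription factor gene *adv-1*, which acts in cell fusion and development, was at 101 to 122 CPM in the wild type in the dark and at 16.2 to 28.5 CPM in ∆*ve-1* in the dark. It was called lower in ∆*ve-1* and in the double mutant than in the wild type, in the dark and in light, and lower in the double mutant than in ∆*wc-1* in both. In these comparisons 4.32 to 23.0% of all genes were called. The largest of these 6 differences was -2.36 (log2, SE 0.33, adjusted p by edgeR = 0.000111) and the smallest -1.10 (SE 0.32, adjusted p = 0.0417). In light it was higher in ∆*wc-1* than in the wild type by 1.05 (SE 0.32, adjusted p = 0.0358), which was not called without the library that stood apart (log2 0.80, adjusted p = 0.0945). Without that library 3 others were called higher in the same comparison, *mak-2* (log2 1.38, adjusted p = 0.0382), *pp-1* (1.05, adjusted p = 0.0402) and the G protein alpha subunit gene *gna-2* (1.06, adjusted p = 0.0380). In that fit 1373 of the 9506 genes tested were called, and with all libraries 10.5% of all genes were.

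Of the genes over all libraries, *fmf-1* had the pattern most like that of *pre-1*. It encodes a regulator with an HMG domain that is needed for female and male fertility. The Spearman correlation of the log2 CPM of the 2 genes over 24 libraries was 0.90, a description over libraries that share strains, conditions and depth. It was at 0.268 to 2.45 CPM in ∆*wc-1* in light and at 1.33, 19.3 and 49.4 CPM in the double mutant in light. The difference was called (log2 4.15, SE 1.07, adjusted p by edgeR = 0.0143), but not without the library that stood apart (3.72, adjusted p = 0.0524).

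By the same measure *ccg-4* was nearest to NCU07254, NCU09831 and NCU08429, each with a correlation of 0.96, and *mfa-1* to NCU02207 (0.96), NCU11196 (0.95) and *eif5A* (0.94), the gene of a translation factor. The nearest gene of *mat A-1* was NCU16924 (0.81), that of *mat A-2* NCU04662 (0.83), that of *mat A-3* NCU09776 (0.88) and that of *pre-2* NCU07801 (0.72). Among the 7 genes themselves, *ccg-4* and *mat A-1* had a correlation of 0.71, *pre-1* and *mat A-1* 0.62, and *ccg-4* and *pre-1* 0.62. That of *mfa-1* with *mat A-2* was -0.66.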

How the data were processed

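Poly(A) RNA was sequenced from strand-specific libraries. The authors trimmed and mapped the reads with STAR to the OR74A genome (NC12), counted them per gene with featureCounts, and deposited raw, unnormalized counts per gene (whole numbers). All 24 columns were used. Gene names and coordinates come from the RefSeq table of NC12, which matched all 10561 locus tags. It gives gene span only and no product names, so pheromone maturation genes were not analysed here, and 2 of 19 pathway genes were left out because it gives them another symbol.

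Counts were fitted with edgeR 4.0.16 in R 4.3.3 (TMM, filterByExpr over the 8 conditions, 1 mean per condition over all 24 libraries, quasi-likelihood test, 17 contrasts) with Benjamini-Hochberg adjustment over 9412 genes. CPM used total counts and TMM factors, and 95% intervals came from the SE. Plots used a pseudocount of 0.5 CPM. The text names the 7 genes, pathway genes called in any test, neighbours, and the 3 genes nearest to each by Spearman correlation. The members and lists were chosen with earlier results of these data known. Alternatives were DESeq2 1.42.0, edgeR on the conditions compared, RLE, no filter, a filter of 5 CPM in 3 or more libraries, limma-voom (limma 3.58.1) with quality weights, a replicate block, a composition covariate, adjusted p alone, and leaving out libraries. Leaving out the ∆*wc-1* library that stood apart from tests that do not hold it, and the nearest pair of the double mutant, were chosen after seeing the data. Each test was tested on simulated data. Deviations from the condition means were correlated in all 3 same-numbered pairs for the wild type with ∆*wc-1* in the dark (0.186 to 0.341), ∆*wc-1* with the double mutant in the dark (0.190 to 0.275) and the wild type with the double mutant in light (0.100 to 0.467). The labels do not say that the numbers mark pairing. Of 84 same-numbered pairs 34 were above 0.1, and the nearest double mutant libraries bore different numbers, so these correlations cannot show it.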

Additional observations from a re-analysis of the deposited data

How the results depend on the processing

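The 17 counts of the 7 genes called were compared with those under each alternative. For light in the wild type (0 called) the count was 1 with DESeq2 on all libraries, 2 with DESeq2 on the libraries compared, 1 with edgeR on the libraries compared, 2 with limma-voom, 1 with the composition covariate and 0 to 1 without single libraries. For light in ∆*wc-1* (0) it was 1 with DESeq2 on all libraries, 1 with DESeq2 on the libraries compared and 1 with limma-voom. In the dark, for ∆*ve-1* against the wild type (1), it was 2 with DESeq2 and with edgeR on the libraries compared, 2 with limma-voom, and 0 to 1 without single libraries. For the double mutant against the wild type (1) it was 3 with limma-voom, 2 with the covariate and 0 to 1 without single libraries, and against ∆*wc-1* (1) it was 2 with the covariate and 0 to 1 without single libraries. In light, for ∆*ve-1* against the wild type (0) it was 1 with limma-voom and 0 to 1 without single libraries. For ∆*wc-1* against the wild type (1) it was 0 with edgeR on the libraries compared, 3 with limma-voom, 2 with the covariate and 0 to 1 without single libraries. For the double mutant against the wild type (0) it was 2 and 1 with DESeq2 on all and on the compared libraries, 1 with limma-voom, 1 with the covariate and 0 to 2 without single libraries. Against ∆*wc-1* (3) it was 0 with edgeR and 2 with DESeq2 on the libraries compared, and 2 to 3 without single libraries. For the difference in light effect (0 in each) the count in ∆*ve-1* was 1 and 2 with DESeq2, 1 with edgeR on the libraries compared and 1 with limma-voom. In ∆*wc-1* it was 1 with DESeq2 on the libraries compared, 2 with limma-voom and 2 with the covariate, and in the double mutant 1 with the covariate. It was 0 to 1 in all 3 without single libraries. The cause was not tested.

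Directions reversed for *mfa-1* with the covariate (log2 -1.61 for light in the wild type, -1.31 in the dark and 0.14 in light for ∆*ve-1* relative to wild type), for *mfa-1* with light in ∆*wc-1* (-0.17 with limma-voom, -0.18 without replicate 1 in light, in a range of -0.18 to 4.11 without single libraries), and for *mat A-2* with light in the wild type (1.22 with the covariate). For light in the wild type and for ∆*ve-1* in the dark the covariate did not overlap between the groups compared, so it cannot separate composition from light or strain there. Without wild-type replicate 3 in light, whose 64 counts are the only ones of *mat A-3* in that group, *mat A-3* was called lower in light, and the fitted change then rests on 0 counts.

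Over all conditions 34 of 84 same-numbered pairs of libraries had a correlation above 0.1 (-0.616 to 0.727), and in 3 of 28 couples of conditions all 3 pairs did. In those 3 the block changed no count of the 7 genes. The labels do not say that the numbers mark pairing in any couple. With the replicate block *ccg-4* in ∆*wc-1* against the wild type in light was not called (-4.11, adjusted p = 0.0589), so the count there was 0, and no other count moved. That couple is not among those 3, with correlations from -0.174 to 0.416. The counts of all genes called moved too, from 2166 to between 1516 and 3485 for ∆*ve-1* in the dark, from 1069 to between 882 and 2243 for light in the wild type, from 992 to between 138 and 2281 for ∆*wc-1* in light, and from 1180 to between 14 and 1802 for the double mutant against ∆*wc-1* in light. For ∆*ve-1* against wild type in light the log2 ratio of the *mat A-1* means was 0.37 in CPM and -0.07 relative to its neighbours, the latter without a test. The order of the genes by exon length was not run.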
